A study of Mus musculus with 12 samples.

Results

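The genes described here encode enzymes that modify and crosslink collagen: *Lox*, *Loxl1*, *Loxl2*, *Loxl3*, *Loxl4*, *Plod1*, *Plod2*, *Plod3*, *P4ha2* and *Tgm2*. They were selected by gene symbol, and all 10 were found in each of the 3 deposited expression tables, which together list 28995 genes. Fibroblasts had been isolated by adherence from the hindlimb muscles of C57BL/10 wild-type mice at postnatal day 3 and were used at passage 2, after 24 hours in medium with charcoal-stripped serum. Plates from 2 mice were then treated for 48 hours with 1 µM aldosterone, the natural agonist of the mineralocorticoid receptor (MR), with 1 µM spironolactone, an MR antagonist, or with the vehicle DMSO, and each treatment gave 4 libraries. Both compounds are steroids, and aldosterone carries an aldehyde group, whereas spironolactone carries a spirolactone ring and an acetylthio group. All cells grew in culture outside the muscle, and the adherent population was enriched for fibroblasts rather than sorted. Serum stripped of steroids was used for the 24 hours before treatment and during treatment, and ordinary serum before that. The labels give each library a sample number and a biological replicate number, both 1 or 2, without stating which one stands for the mouse. Plates of 1 mouse are not separate animals, so p-values measure the spread between these libraries.

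Collagen chains are altered inside the cell before they fold and outside the cell before they form stable fibrils. Prolyl 4-hydroxylases, built from a catalytic alpha subunit such as that encoded by *P4ha2* and the shared subunit encoded by *P4hb*, hydroxylate prolines and stabilise the triple helix, and the lysyl hydroxylases encoded by the *Plod* genes hydroxylate lysines and so affect which crosslinks can form. Lysyl oxidases are copper-dependent enzymes that oxidise lysine and hydroxylysine side chains of collagen and elastin to aldehydes, which then react into covalent crosslinks. The transglutaminase encoded by *Tgm2* joins glutamine to lysine side chains of matrix proteins. In skeletal muscle, fibroblasts are the main source of this matrix, and its crosslinking is a known feature of stiff, fibrotic tissue.

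The libraries held between 19136923 and 30219185 recovered reads in genes. The fibroblast markers *Pdgfra*, *Dcn*, *Lum*, *Thy1*, *Col1a1* and *Col3a1* were present in every treatment, and the marker lists of other lineages were not empty. In the table of aldosterone and vehicle, of the macrophage and leukocyte list *Lyz2* averaged 159, *Csf1r* 51.0 and *Cd68* 26.5 normalised counts and *Adgre1* and *Ptprc* 0.684 and 0.332, while *C1qa* is not listed. Of the myogenic list *Acta1* averaged 388 and *Des* 86.6 normalised counts and the satellite cell gene *Pax7* 0.458, while *Myf5* is not listed in that table. Marker levels of other lineages are given with the results they moved with. All 5 steroid response genes chosen as controls (*Fkbp5*, *Tsc22d3*, *Per1*, *Zbtb16* and *Sgk1*) rose with aldosterone against vehicle, by 1.83 to 4.26 on the log2 scale for *Per1*, *Sgk1*, *Tsc22d3* and *Fkbp5* and by 6.67 for *Zbtb16*.

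*Lox* was by far the most abundant of the enzyme genes. Levels between genes are compared as reads per kilobase of gene scaled to library size (RPKM, with library totals scaled by the TMM method), and on this scale *Lox* averaged 2107 over all 12 libraries, which placed it at rank 7 of 28995 genes. In vehicle-treated fibroblasts its level was 1966 ± 255 RPKM (SD, n = 4), and its reads made up 0.947% ± 0.11 (SD, n = 4) of all reads in genes. *Loxl1* followed at 112 ± 7.15 RPKM and *Plod3* at 67.6 ± 3.87 RPKM (SD, n = 4 each), so that *Lox* exceeded *Loxl1* by 17.5 times. *P4ha2* (28.0), *Loxl3* (25.8), *Plod2* (25.6), *Plod1* (22.0), *Loxl2* (19.1) and *Loxl4* (17.2) lay close together in mean RPKM, and *Tgm2* was lowest at 2.52 ± 0.473 (SD, n = 4). In this order the libraries of neighbouring genes overlapped for *P4ha2* and *Loxl3*, for *Loxl3* and *Plod2* and for *Loxl2* and *Loxl4*. Within libraries *P4ha2* was still above *Loxl3* in 4 of 4, *Loxl2* above *Loxl4* in 3 of 4 and *Loxl3* above *Plod2* in 2 of 4, so that the last of these pairs had no order. By mean RPKM the first 5 places were held by the same genes in the same order in all 3 treatments, while *Plod1* stood at place 7 with vehicle and spironolactone and at place 6, above *Plod2*, with aldosterone. Place 5, held by *Loxl3*, was not settled against *Plod2* with vehicle or spironolactone. There the means differed by 1.01 and 1.02 times, and 2 of 4 libraries had this order in each.

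**Figure D1:**
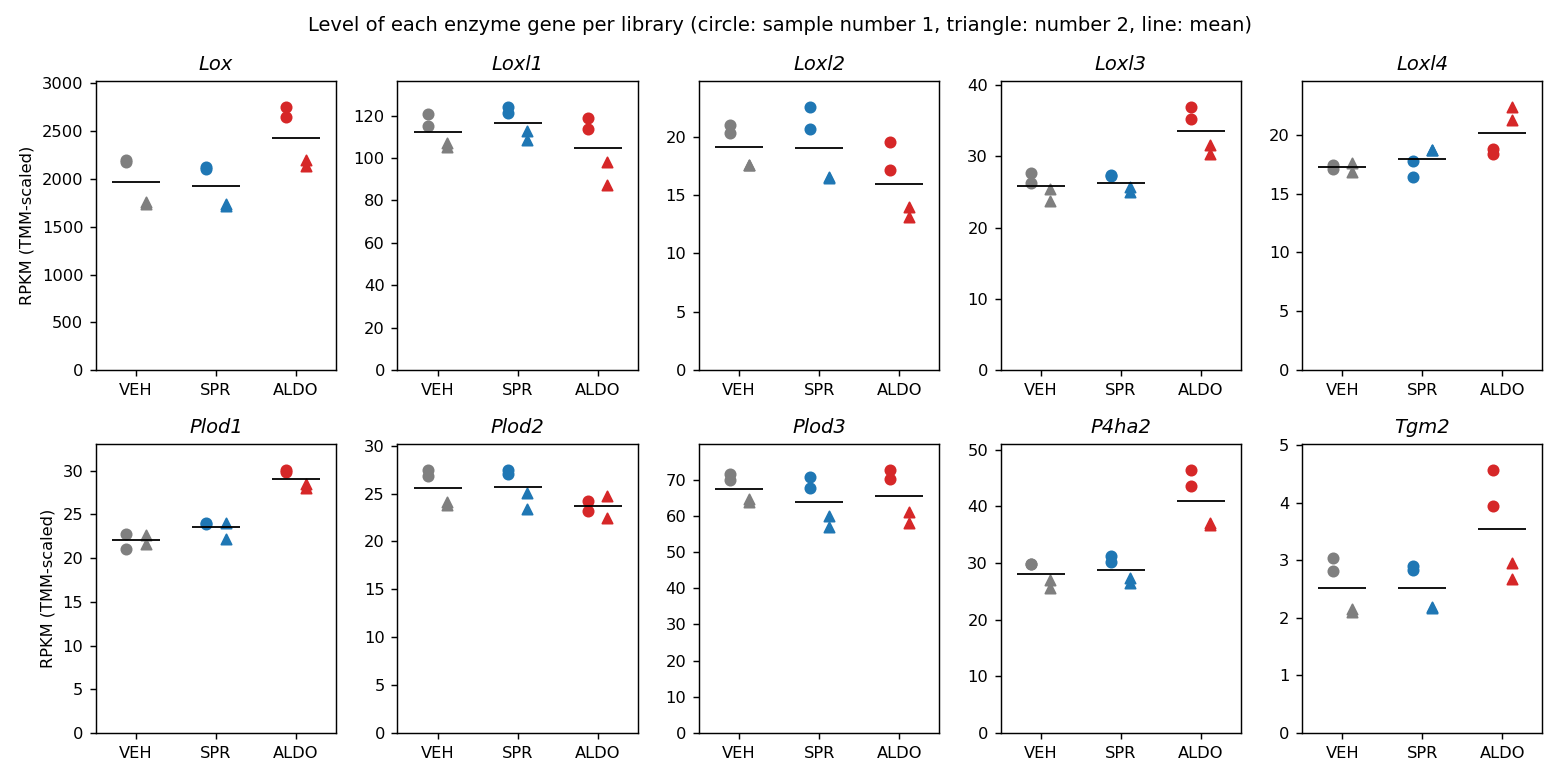
Levels of the 10 enzyme genes in each library, in RPKM on a linear axis that starts at 0 and is scaled for each gene (VEH, vehicle; SPR, spironolactone; ALDO, aldosterone; 4 libraries each). Circles are libraries of sample number 1, triangles those of sample number 2 and lines the treatment means; the aldosterone libraries of *P4ha2*, *Plod1* and *Loxl3* lie above all 8 others, and circles lie above triangles in each treatment for 7 genes.

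The comparison of aldosterone with vehicle asks what aldosterone added directly to these cells changes. No library received aldosterone together with the antagonist, so these libraries do not separate MR from other steroid receptors. Of the 10 members 4 rose, namely *P4ha2*, *Plod1*, *Loxl3* and *Loxl4*, with folds between 1.17 and 1.46, and 0 fell (adjusted p of at most 0.05, limma on log2 of the normalised count plus 1, Benjamini-Hochberg over all 27319 genes of the table). Among all of these, 5.68% were called higher and 4.74% lower, and in the 15245 genes whose mean normalised count was 10 or more, which include all 10 members, these shares were 9.65% and 8.09%. The median change of the members was 0.26 on the log2 scale, against -0.01 over all genes. At the additional threshold of an absolute log2 fold change of 1, which 2.06% of all genes passed in either direction, 0 of the 10 members were called.

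Samples of different treatment that shared a sample number deviated together from their treatment means, so the same fit was also made with a block for the sample number. The block takes out the difference between the sample numbers. Its p-values therefore measure the spread left within them, largely that between the 2 replicate libraries of a treatment and sample number. With the block 6 members were called higher, adding *Lox* and *Tgm2*, and *Loxl2* was called lower, against 8.68% of all genes higher and 8.02% lower. These shares include weakly expressed genes, and the shares with the block among better expressed genes such as the members are not given here. *Loxl1*, *Plod2* and *Plod3* passed in neither fit.

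*P4ha2* changed most. The gene, at chr11:53990921-54022491 on the plus strand (positions of genes are as deposited, on build mm39 per the submitters' processing notes, although the study's methods name mm9), encodes one of the catalytic alpha subunits of prolyl 4-hydroxylase. Normalised counts in the aldosterone libraries were 6466, 6906, 5445 and 5491, given here and below in the order sample 1 replicates 1 and 2, then sample 2 replicates 1 and 2. The vehicle libraries held 4422, 4425, 4003 and 3790.3. All 4 aldosterone libraries exceeded all 4 vehicle libraries, with the lowest at 5445 against a highest of 4425. The difference was 0.54 on the log2 scale (SE 0.0785, 95% interval 0.376 to 0.709, adjusted p = 0.00017 by limma), or 1.46-fold, and the 2 groups gave an exact permutation p of 0.0286, the smallest that 4 against 4 libraries allow.

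*Plod1*, at chr4:147994210-148021224 on the minus strand, encodes the lysyl hydroxylase that acts on lysines of the collagen helix. Its normalised counts were 4848, 4811, 4567 and 4491 with aldosterone and 3663, 3392, 3654 and 3472 with vehicle. These groups lay well apart, since the lowest aldosterone library exceeded the highest vehicle library by more than the range within either group. *Plod1* was 0.40 higher on the log2 scale (SE 0.0527, 95% interval 0.289 to 0.512, adjusted p = 6.67e-05 by limma), or 1.32-fold.

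The other lysyl hydroxylase genes did not pass the test. *Plod2* (chr9:92424276-92490481, plus strand) encodes the enzyme that hydroxylates telopeptide lysines, and it ranged from 2872 to 3161 with aldosterone and from 3058 to 3517 with vehicle, a difference of -0.11 on the log2 scale (95% interval -0.238 to 0.019, adjusted p = 0.344 by limma). *Plod3* (chr5:137015873-137025502, plus strand), whose product also transfers glucose to galactosylated hydroxylysine, differed by -0.05 on the log2 scale (95% interval -0.206 to 0.104, adjusted p = 0.748 by limma). For both genes the groups overlapped. As a share of the summed RPKM of the 3 *Plod* genes, *Plod1* made up 19.2% ± 1.2 with vehicle and 24.7% ± 0.85 with aldosterone (SD, n = 4 each), and the 2 ranges, 17.8% to 20.5% and 23.7% to 25.4%, did not overlap. The summed level of the 3 genes was 115 ± 5.63 RPKM with vehicle and 118 ± 8.13 RPKM with aldosterone (SD, n = 4 each), with overlapping libraries.

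To show the sequence before the start of hydroxylase genes that rose together and of one that did not, the 250 bases before the annotated start are given for *P4ha2* (chr11:54100674-54100923 on the plus strand), *Plod1* (chr4:147936777-147937026 on the minus strand) and *Plod3* (chr5:136986769-136987018 on the plus strand). The sequences are from RefSeq on build GRCm38.p6, in which 4 of the 10 members were matched (*Loxl4*, *Plod1*, *Plod3* and *P4ha2*), and are written 5′ to 3′ on the strand of the gene. Capitals mark exact matches on either strand to any of the motifs AGAACA (a site of steroid receptors), ACGTG (the core of the hypoxia response element), TGANTCA (AP-1) and CAGACA (SMAD).
P4ha2: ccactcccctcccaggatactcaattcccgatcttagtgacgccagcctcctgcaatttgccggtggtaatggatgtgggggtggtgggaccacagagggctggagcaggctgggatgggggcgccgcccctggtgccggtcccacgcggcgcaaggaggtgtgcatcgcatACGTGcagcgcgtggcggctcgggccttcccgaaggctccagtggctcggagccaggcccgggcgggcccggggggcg
Plod1: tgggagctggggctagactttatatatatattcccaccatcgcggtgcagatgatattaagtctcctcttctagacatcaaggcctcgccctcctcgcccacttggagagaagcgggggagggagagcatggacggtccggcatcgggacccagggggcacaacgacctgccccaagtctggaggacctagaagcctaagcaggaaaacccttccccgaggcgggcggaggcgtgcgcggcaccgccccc
Plod3: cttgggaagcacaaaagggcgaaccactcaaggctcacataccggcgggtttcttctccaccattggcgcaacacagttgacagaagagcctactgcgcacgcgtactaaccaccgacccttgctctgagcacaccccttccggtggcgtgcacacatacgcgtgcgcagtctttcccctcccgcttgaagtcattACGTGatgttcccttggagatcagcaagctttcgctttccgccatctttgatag
A single match was found in each of *P4ha2* and *Plod3*, in both cases ACGTG on the strand of the gene, beginning 78 bases before the start of *P4ha2* and 54 bases before that of *Plod3*. *Plod1* and *Loxl4* held no match to any of the 4 motifs in this window. Of 32851 promoter windows of the same length, 16.6% held ACGTG, 16.1% AGAACA, 6.75% TGANTCA and 17.1% CAGACA. One gene that rose and one that did not pass thus shared this match, and the letters alone do not say whether a factor binds there.

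Among the lysyl oxidases, *Loxl3* and *Loxl4* passed the test. *Loxl3* (chr6:83011154-83029543, plus strand) held 4042, 3869, 3451 and 3307 normalised counts with aldosterone and 2871, 3025, 2604 and 2787 with vehicle. The groups did not overlap, and the difference was 0.38 on the log2 scale (SE 0.0692, 95% interval 0.229 to 0.522, adjusted p = 0.00155 by limma), or 1.3-fold. *Loxl3* shares 1297 bases with *Htra2* on the opposite strand, and whether reads were counted by strand is not given in the sources used here, so reads in that stretch cannot be told apart.

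*Loxl4* (chr19:42582421-42601252, minus strand) held 1888.5, 1842, 2121 and 2229 normalised counts with aldosterone and 1716, 1741, 1768 and 1684 with vehicle. Here too every aldosterone library lay above every vehicle library, but the sample 1 libraries did so by little. The difference was 0.22 on the log2 scale (SE 0.0649, 95% interval 0.0838 to 0.359, adjusted p = 0.0383 by limma), or 1.17-fold. The call was lost when any 1 of 7 of the 8 libraries was left out, with adjusted p up to 0.17, and was kept only without the second replicate of aldosterone sample 1.

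*Lox* itself (chr18:52649139-52662939, minus strand) was separated by treatment only within each sample number. Normalised counts with aldosterone were 312802, 301311, 249242 and 241984, and with vehicle 247397, 249416, 197081 and 199790. The sample 2 libraries with aldosterone lay at the level of the sample 1 libraries with vehicle, so the groups overlapped. The difference of 0.31 on the log2 scale (95% interval 0.064 to 0.549), or 1.24-fold, had an adjusted p of 0.115 without and 2.99e-06 with the block by limma, and was 1.24-fold within sample 1 and 1.24-fold within sample 2. DESeq2 on recovered reads called it without a block (adjusted p = 0.021). Of 19 alternative fits 3 called *Lox*, and 0 of those with 1 library left out did (adjusted p from 0.179 to 0.378 by limma without the block). That fit did not call *Lox* with all libraries either, so leaving libraries out does not test the result with the block. Aldosterone-treated fibroblasts had 1.14% ± 0.12 (SD, n = 4) of their reads in *Lox*.

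*Loxl2* (chr14:69846517-69933283, plus strand), whose product acts on collagen IV and other basement membrane collagen, went the other way. Aldosterone libraries held 2521, 2211, 1796 and 1684 normalised counts and vehicle libraries 2697, 2605, 2265 and 2254. Within each sample number the aldosterone libraries lay below the vehicle libraries, while over both numbers the groups overlapped. The difference of -0.27 on the log2 scale (95% interval -0.494 to -0.0497) had an adjusted p of 0.13 without and 0.000169 with the block by limma. *Loxl1* (chr9:58195021-58220469, minus strand), which is known for its part in elastic fibres, differed by -0.11 on the log2 scale (95% interval -0.288 to 0.0701, adjusted p = 0.536 by limma and 0.103 with the block).

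On the RPKM scale *Lox* outweighed the rest of its family in every treatment. It accounted for 91.8% ± 0.56 of the summed RPKM of the 5 lysyl oxidase genes with vehicle and 93.3% ± 0.2 with aldosterone (SD, n = 4 each), with ranges of 91.2% to 92.4% and 93.0% to 93.5%. The share of *Loxl1* was 5.27% ± 0.36 with vehicle and 4.01% ± 0.14 with aldosterone, and that of *Loxl2* 0.895% ± 0.032 and 0.61% ± 0.04 (SD, n = 4 each). The libraries of the 2 treatments did not overlap in any of these 3 shares. They did overlap in the shares of *Loxl3* (means of 1.21% with vehicle and 1.29% with aldosterone) and *Loxl4* (0.815% and 0.79%). Every share also depends on the level of *Lox*, which makes up most of the sum. A lower share of *Loxl1* is therefore not by itself a fall of *Loxl1*, which passed in neither fit against vehicle.

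*Tgm2* (chr2:157958322-157988356, minus strand) held 501, 434, 323 and 293 normalised counts with aldosterone and 308, 333, 236 and 229.7 with vehicle. As for *Lox*, the treatments separated within each sample number but overlapped over both. The difference of 0.47 on the log2 scale (95% interval 0.136 to 0.807), or 1.39-fold, had an adjusted p of 0.0744 without and 5.2e-05 with the block by limma, and of 0.0391 by DESeq2 without a block. Of 19 alternative fits 3 called *Tgm2*, and 0 of those with 1 library left out did (adjusted p from 0.126 to 0.375 by limma without the block). As for *Lox*, that fit made no call with all libraries, so the result with the block was not tested this way. *Tgm2* was covered by 193 to 450 reads per library, the fewest of the members, and it shares 15896 bases with *Rprd1b* on the opposite strand, which had 716 to 1241 reads.

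**Figure D2:**
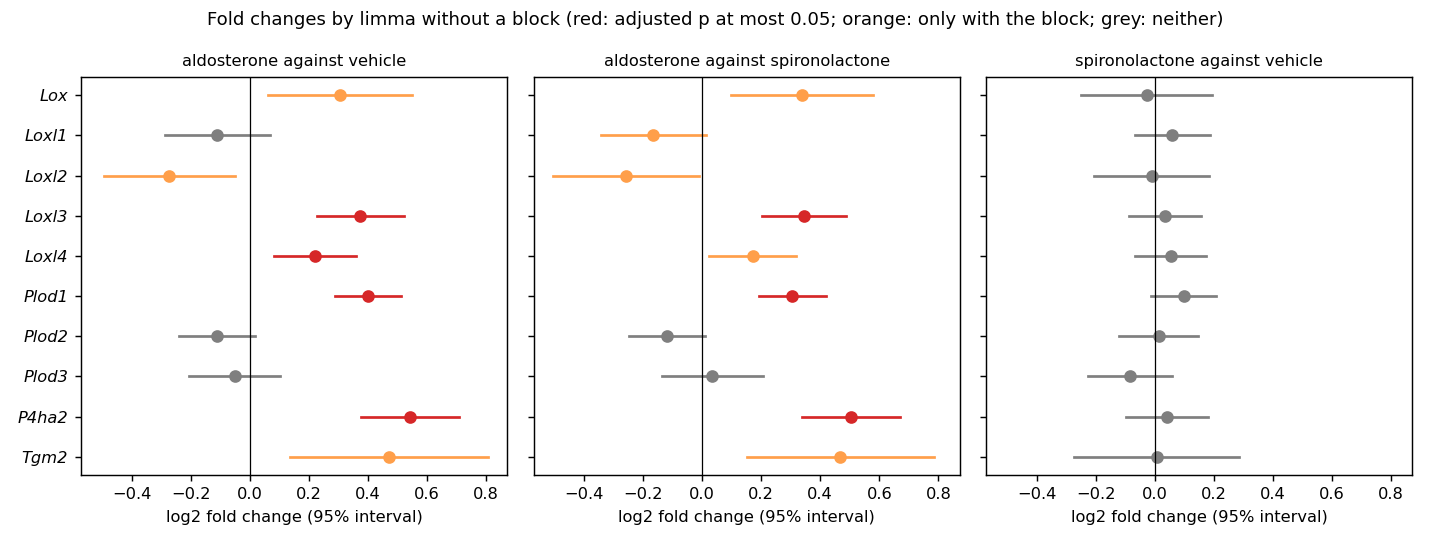
Log2 fold changes of the 10 enzyme genes in the 3 comparisons (points) with 95% intervals (lines) from limma without a block. Red marks an adjusted p of at most 0.05, orange genes that pass once the block on sample number is added and grey those that pass in neither; the intervals of all 10 genes include 0 for spironolactone against vehicle.

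Aldosterone was also compared with spironolactone, the antagonist, at the same dose and time. The same aldosterone libraries served both comparisons, so their values are set side by side and are not independent. *P4ha2* was 0.50 higher on the log2 scale with aldosterone than with spironolactone (adjusted p = 0.000288), *Plod1* 0.31 higher (adjusted p = 0.000881) and *Loxl3* 0.35 higher (adjusted p = 0.00213, all by limma), and 0 of the 10 members were lower. In this table of 27631 genes 4.93% were called higher and 3.96% lower, or 8.39% and 6.78% of the 15300 genes with a mean of 10 or more, and 1.9% passed both thresholds, none of them a member. With the block 6 members were called higher, adding *Lox*, *Loxl4* and *Tgm2*, and 2 lower, *Loxl1* and *Loxl2*, against 7.58% and 6.8% of all genes. Here too the shares with the block include weakly expressed genes.

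*Lox* libraries did not overlap between these treatments, with 248619 to 322318 normalised counts for aldosterone and 201162 to 247608 for spironolactone (exact permutation p = 0.0286), and the difference was 0.34 on the log2 scale with an adjusted p of 0.0854 without and 7.85e-06 with the block by limma. Without a block *Lox* passed in this comparison by DESeq2 (adjusted p = 0.00634), edgeR (0.045) and limma-voom (0.0354). *Loxl4* ranged from 1893 to 2290.3 with aldosterone and from 1685 to 1926 with spironolactone, and these groups overlapped (log2 difference 0.17, adjusted p = 0.172 without and 0.0118 with the block by limma). *Tgm2* differed by 0.47 on the log2 scale (adjusted p = 0.0648 without and 4.35e-05 with the block by limma, and 0.0321 by DESeq2 without a block). For *Loxl1* the difference was -0.17 (adjusted p = 0.311 without and 0.0102 with the block) and for *Loxl2* -0.26 (0.241 and 0.000194, by limma). The call of *Loxl3* was lost without the second replicate of aldosterone sample 1 (adjusted p = 0.0569 by limma) and without either spironolactone library of sample 2 (0.0521 and 0.0582).

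None of these genes passed the test for spironolactone against vehicle. In that comparison none of 27598 genes was called by limma (0 genes, 0%), with 1251 at an unadjusted p under 0.05, of which 0 were members, and DESeq2 on recovered reads called 13 genes, again without a member. The 10 differences from vehicle lay between -0.08 (*Plod3*) and 0.10 (*Plod1*) on the log2 scale, and the lowest adjusted p was 0.934. With the block 0.351% of all genes were called and still 0 members, with a lowest adjusted p of 0.566. The unadjusted p with the block was under 0.05 for *Plod1* (0.0284) and *Plod3* (0.0398, both by limma). The 95% interval was widest for *Tgm2*, at -0.273 to 0.286, and next widest for *Lox*, at -0.25 to 0.194. It was narrower for *Plod1*, at -0.0121 to 0.207, and for *P4ha2*, at -0.0984 to 0.18. *Plod1* was nearest to a separation, with 3877, 3884, 3900.1 and 3601 normalised counts with spironolactone and 3677, 3417, 3679 and 3493 with vehicle (exact permutation p = 0.0857).

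Levels also differed between the sample numbers. In 7 of the 10 members (*Lox*, *Loxl1*, *Loxl2*, *Loxl3*, *Plod3*, *P4ha2* and *Tgm2*) both libraries of sample number 1 exceeded both of number 2 in all 3 treatments, against 8.85% of the 15706 genes kept by the filter on low counts, and 0 members were lower in all 3, against 7.92%. The fold of number 1 over number 2 ran from 1.11 for *Loxl3* over 1.24 for *Lox* to 1.4 for *Tgm2*. *Loxl4* was the one member with a lower mean in sample number 1, at 17.6 against 19.2 RPKM, while *Plod1* differed least, at 25.3 against 24.5 RPKM. For *Lox* and *Tgm2* this fold was about as large as that between aldosterone and vehicle, at 1.24 and 1.39.

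Within sample number 1 aldosterone raised *P4ha2* by 1.51-fold, *Plod1* by 1.37-fold and *Loxl3* by 1.34-fold over vehicle, and within number 2 by 1.4-fold, 1.27-fold and 1.25-fold, with the 2 aldosterone libraries above the 2 vehicle libraries each time. *Loxl4* was 1.08-fold higher in number 1 and 1.26-fold in number 2, with the same separation. *Plod3* had no common direction, at 1.01-fold and 0.922-fold. A test of whether the aldosterone effect differed between the sample numbers, chosen after the data were seen, gave an adjusted p of 0.895 or higher for every member by limma. With 2 libraries per treatment in each number, such a difference could be missed. Against vehicle the unadjusted p was 0.0181 for *Loxl4* (log2 difference between the effects 0.224), 0.0444 for *Loxl1* and 0.0463 for *Loxl2* by limma.

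**Figure D3:**
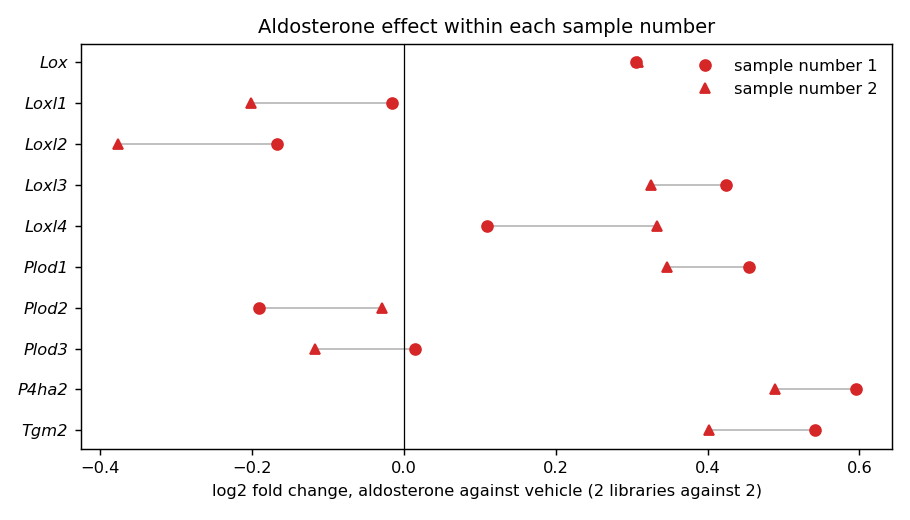
Log2 fold change of aldosterone against vehicle for each enzyme gene within sample number 1 (circles) and within sample number 2 (triangles), each from 2 libraries against 2. *P4ha2*, *Tgm2*, *Plod1*, *Loxl3*, *Lox* and *Loxl4* lie above 0 and *Loxl1*, *Loxl2* and *Plod2* below 0 in both, and *Plod3* changes side.

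Some members varied closely together across the 12 libraries. Pearson's r of log2 CPM was 0.985 between *Lox* and *Tgm2*, 0.969 between *Loxl3* and *P4ha2* and 0.925 between *Plod1* and *P4ha2*. *Loxl1* and *Loxl2* varied together (r = 0.918) and opposite to *Loxl4* (r = -0.799 and -0.829). These values describe libraries that share treatment and sample number, and genes are not independent replicates. Among 15705 other genes the most alike were, for *P4ha2*, the small heat shock protein genes *Hspb1* (r = 0.994) and *Hspb7* (r = 0.992) and *Dap* (r = 0.991). For *Plod1* they were the fibrillar collagen gene *Col24a1* (r = 0.977), *Rgcc* (r = 0.973) and *Arl4d* (r = 0.971), and for *Loxl3* the fibronectin receptor subunit gene *Itga5* (r = 0.992), *Masp1* (r = 0.991) and *Slc1a5* (r = 0.988). *Loxl4* had fewer close genes, led by *Appl2* (r = 0.959), *Zfas1* (r = 0.953) and *Hs3st3a1* (r = 0.944), and 18 genes exceeded an r of 0.9 with it, against 379 for *P4ha2*.

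The other prolyl hydroxylases and their partners did not rise with *P4ha2*. Of 9 genes 0 were higher and 2 lower with aldosterone against vehicle, or 0 and 3 with the block, which added *P3h3* (log2 difference -0.13, adjusted p = 0.0134). *P4ha1*, the more abundant alpha subunit, fell from 7430 ± 311 to 6201 ± 129 normalised counts (SD, n = 4 each; log2 difference -0.26, adjusted p = 0.00269 by limma), and *P3h1*, a collagen prolyl 3-hydroxylase, fell by 0.26 on the log2 scale (adjusted p = 0.014 by limma). *P4hb*, the common subunit, differed by 0.0037 on the log2 scale (adjusted p = 0.987 by limma). *P4ha2* made up 20.8% ± 1.5 of the summed RPKM of the 3 alpha subunit genes with vehicle, 21.2% ± 1.8 with spironolactone and 30.4% ± 2.9 with aldosterone (SD, n = 4 each), while the share of *P4ha1* was 56.4% ± 0.91, 55.3% ± 1.1 and 47.2% ± 1.6. The ranges of the *P4ha2* share were 19.5% to 22.6% with vehicle and 27.7% to 33.9% with aldosterone. *P4ha1* remained the most abundant of the 3 in every treatment.

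Of 8 collagen glycosyltransferases and chaperones, 1 rose and 3 fell. *Tmem38b*, an endoplasmic reticulum cation channel needed for collagen processing, was higher by 0.67 on the log2 scale (limma, adjusted p = 8.66e-05), while the collagen chaperone gene *Serpinh1* fell by 0.21 (adjusted p = 0.0446), and the prolyl isomerase genes *Fkbp10* and *Fkbp14* fell by 0.19 (adjusted p = 0.0457) and 0.27 (adjusted p = 0.00741). Of 8 procollagen proteinases and enhancers 2 rose, *Pcolce2* by 0.67 (adjusted p = 5.81e-07) and the amino-propeptidase gene *Adamts2* by 0.48 (adjusted p = 8.47e-05), and 1 fell, *Adamts14*, by 0.50 (adjusted p = 0.0194, all by limma). The median change of these lists was 0.02 and -0.06 on the log2 scale. Among the other transglutaminases the one with a mean of at least 10 was *F13a1*, which encodes the coagulation factor XIII A chain, and it fell from 169 ± 59.5 to 35.0 ± 22.3 normalised counts (SD, n = 4 each; adjusted p = 0.000225 by limma), opposite in direction to the difference of *Tgm2*. Of 4 copper delivery genes 0 passed the test in either direction, and the lowest adjusted p was 0.225 (*Atox1*).

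The substrates moved in both directions. Of 11 fibrillar collagen genes 2 rose and 2 fell with aldosterone, or 5 and 4 with the block. *Col24a1* rose by 2.93 on the log2 scale, from 40.0 ± 3.36 to 312 ± 36.7 normalised counts (SD, n = 4 each; adjusted p = 3.26e-10 by limma), and *Col5a3* rose by 0.51 (adjusted p = 6.87e-05), whereas *Col3a1* fell by 0.43 (adjusted p = 0.000442) and *Col5a2* by 0.33 (adjusted p = 0.0368). Of 8 genes for elastin and fibril partners 1 rose and 2 fell, or 2 and 4 with the block. *Postn*, which encodes periostin, a matricellular protein that promotes lysyl oxidase activation, rose by 1.97 (adjusted p = 6.76e-10), while the elastic fibre genes *Fbln5* and *Emilin1* fell by 0.69 (adjusted p = 4.26e-07) and 0.35 (adjusted p = 0.00154, all by limma).

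Several collagen hydroxylase and lysyl oxidase genes are known targets of hypoxia-inducible factors, so that list was examined too. Of its 12 genes 4 rose and 2 fell. *Hif3a*, which encodes an alpha subunit of the family, rose from 3.29 ± 3.70 to 549 ± 20.9 normalised counts (SD, n = 4 each; adjusted p = 1.29e-08), *Epas1* by 1.06 (adjusted p = 1.23e-05), *Egln3* by 1.23 (adjusted p = 0.000195) and *Bnip3* by 0.73 (adjusted p = 1.82e-05) on the log2 scale. *Vegfa* fell by 0.51 (adjusted p = 0.000486) and *Hif1a* by 0.26 (adjusted p = 0.00727, all by limma), both named after their values were seen. The median of the list was 0.09 on the log2 scale. In the comparison of aldosterone with spironolactone, without the block, the counts of genes higher and lower were the same as against vehicle for the prolyl hydroxylases, proteinases, fibrillar collagens, elastin partners and hypoxia list, and for the chaperones 1 was higher and 1 lower. With the block the counts against spironolactone were 7 higher and 2 lower for the fibrillar collagens, against 5 and 4 against vehicle. For the prolyl hydroxylases they were 0 and 2, against 0 and 3.

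**Figure D4:**
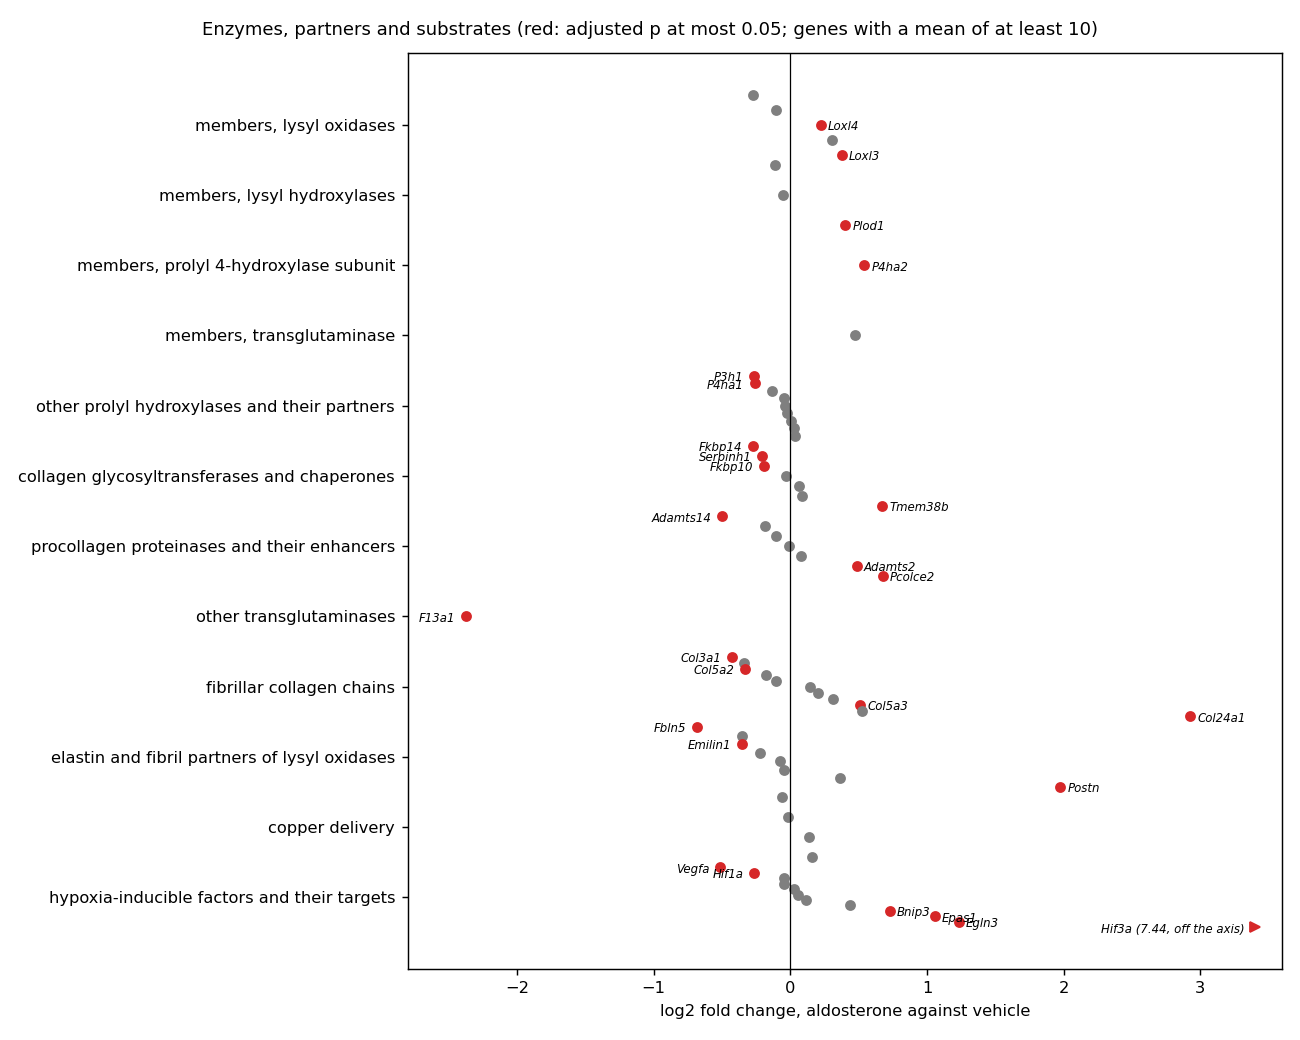
Log2 fold change of aldosterone against vehicle for the enzyme genes and the listed partners and substrates with a mean of at least 10 normalised counts, 1 point per gene and 1 row per list, with *Hif3a* at 7.44 drawn as an arrow at the axis limit. Red points have an adjusted p of at most 0.05; *P4ha2*, *Plod1*, *Loxl3* and *Loxl4* lie to the right and *P4ha1* and *P3h1* to the left of 0.

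Markers of other cell types moved with treatment as well, and in bulk libraries fewer cells of a type and less RNA per cell cannot be told apart. Of the 6 fibroblast markers *Pdgfra* rose by 0.91 (adjusted p = 2.93e-08) and *Col3a1* fell (5 fell with the block), and the summed level of the list, most of it *Col1a1*, which averaged 3274 RPKM over all libraries, ran from 3000 to 3640 RPKM with aldosterone, from 3640 to 4060 RPKM with spironolactone and from 4070 to 4420 RPKM with vehicle. Of 7 tendon, cartilage and bone markers 0 rose and 3 fell, *Scx* by 0.76 (adjusted p = 2.03e-06), *Sp7* by 0.90 (adjusted p = 0.0129) and *Tnmd* by 0.25 (adjusted p = 0.0155), with 1 higher and 5 lower under the block and summed levels of 241 to 408 and 219 to 350 RPKM. The 1 higher was *Col2a1*, the most abundant of this list at a mean of 180 RPKM over all libraries. It differed by 0.52 (adjusted p = 0.314 without and 3.94e-10 with the block by limma). Of 6 myogenic markers *Acta1* fell by 1.26 (adjusted p = 0.000994), with summed levels of 4.63 to 10.2 and 13 to 18.8 RPKM. *Kdr*, 1 of 5 endothelial markers, rose by 1.89 (adjusted p = 0.00183; sums 5.54 to 5.74 and 4.07 to 4.44 RPKM, and 2 markers higher with the block), as did *S100b*, 1 of 4 Schwann cell markers, by 0.50 (adjusted p = 0.0141; sums 7.82 to 11.3 and 6.01 to 7.56 RPKM, all by limma). Most of the endothelial sum was *Tek*, at a mean of 4.15 RPKM over all libraries against 0.407 for *Kdr*. *Pecam1* differed by -0.95, and *Cdh5* and *Emcn* by 0.73 and 0.68, without passing (adjusted p = 0.253, 0.358 and 0.598 by limma). Of the 5 macrophage and leukocyte markers listed and the 5 mural markers 0 passed, but the mural marker *Notch3* was lower with the block (log2 difference -0.30, adjusted p = 0.0585 without and 0.00236 with it, by limma; sums 5.74 to 6.68 against 5.41 to 7.70 RPKM, and 10.4 to 19.0 against 12.9 to 19.6 RPKM). The part of these cell type markers in the changes of the enzyme genes was not tested.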

How the data were processed

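Poly(A) RNA of 12 fibroblast libraries was sequenced on an Illumina instrument. Per the labels' processing notes the authors aligned reads with HISAT2 2.0.5 and counted them per gene with featureCounts 1.5.0-p3. The notes name build mm39 and the study's methods mm9. Positions are printed as deposited, and 0 of the 10 members start where NCBIM37 or GRCm38.p6 place them. The 3 deposited tables, 1 per comparison, hold gene counts divided by a size factor per library (signal values, called normalised counts), scaled separately in each table. Whole reads (within 0.01 of a multiple) were recovered from 22 of 24 columns and gave depth and RPKM. Columns of the authors' fold changes and p-values were not used.

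log2(value + 1) was fitted for all genes of a table with limma 3.58.1 (R 4.3.3), treatment only, with Benjamini-Hochberg adjustment, and genes with an adjusted p up to 0.05 were called. edgeR 4.0.16, DESeq2 1.42.0, limma-voom, other scalings, a pseudocount of 0.5, a mean of at least 10, the sample number as a block and each library left out were alternatives. Deviations from treatment means correlated between treatments in all 24 library pairs that share a sample number in the titles (r 0.12 to 0.277), so the numbers pair the samples. Replicate libraries differed by more than sampling noise. The fit was tested on simulated data.

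The members and lists were chosen with earlier results of these data known. Named beside the members were up to 4 genes per list with the smallest adjusted p for aldosterone against vehicle (mean of at least 10), the steroid controls and the 3 genes most correlated with each called member. *P4hb*, the share of *P4ha2* among alpha subunits, *Ptprc*, *Adgre1*, *Pax7*, *Myf5*, *C1qa*, *Lyz2*, *Csf1r*, *Cd68*, *Col2a1*, *Pecam1*, *Emcn*, *Vegfa* and *Hif1a* were named outside this rule.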

Additional observations from a re-analysis of the deposited data

Results flagged for a closer look

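1 of 30 groups of 4 libraries (10 members in 3 treatments) held a library far from the others, where chance gives about 1 in 20. *Plod1* in the second replicate of spironolactone sample 2 was at 22.25 RPKM, below the other spironolactone libraries, whose highest was 24.0 RPKM, by a gap above Dixon's 95% critical value for 4 samples. That library still lay within the vehicle range of *Plod1*, 21.1 to 22.8 RPKM, and below all aldosterone libraries (28.0 to 30.1 RPKM).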

How the results depend on the processing

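Under 19 alternatives per comparison 0 called member results changed sign. Among uncalled results, the sign changed under some alternatives for *Plod3* (-0.12 to 0.01 on the log2 scale against vehicle and -0.02 to 0.09 against spironolactone) and, for spironolactone against vehicle, for *Lox* (-0.09 to 0.03), *Loxl2*, *Loxl3*, *Loxl4*, *Plod2*, *P4ha2* and *Tgm2*. Of 190 results for aldosterone against vehicle 168 stayed on their side of the threshold, 14 were lost and 8 gained, against spironolactone 168, 8 and 14, and for spironolactone against vehicle all 190 stayed. The sample number as a replicate block raised the genes called from 2847 to 4563 (aldosterone against vehicle), from 2454 to 3974 (against spironolactone) and from 0 to 97 (spironolactone against vehicle, 2 at both thresholds), and the members from 4 to 7 and from 3 to 8. Means per sample number with the block gave 4556, 4179 and 410 genes (6 at both thresholds in the last) and 7 and 8 members. DESeq2, without a block, called 13 genes for spironolactone against vehicle, 6 members for aldosterone against vehicle (adding *Lox* and *Tgm2*) and 5 for aldosterone against spironolactone. The share of all genes that DESeq2 called in the comparisons with aldosterone is not given here. These member counts therefore cannot be set against a background. Sample number 1 alone, 2 libraries against 2, left 17 genes against vehicle (17 at both thresholds) and 4 against spironolactone (4 at both) with 0 members in either, and sample number 2 alone 888 and 943 genes with 1 member each (*P4ha2*); these fits have fewer samples. Leaving out 1 library gave 1766 to 2246 genes and 3 to 4 members against vehicle, and 1565 to 1865 genes and 2 to 3 members against spironolactone. The genes called fell by over 1.5 times without any library except the first aldosterone replicate of sample 1 and the first vehicle replicate of sample 1 against vehicle, and, against spironolactone, the first aldosterone and the second spironolactone replicate of sample 1. For spironolactone against vehicle every such fit called 0. Scaling moved the median of all genes by at most 0.0104 (log2).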
